A study of Mus musculus with 13 samples.

Results

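The imprinted genes followed here were H19, Igf2, Igf2r, Meg3, Dlk1, Peg3, Cdkn1c and Plagl1. They were chosen from their gene symbols, with the values of these same libraries already known, and they are 8 of the 43629 genes in the deposited expression table. All 8 were found there, 7 of the 8 passed the filter on low values (at least 10 normalized counts in at least 3 libraries), and Peg3 did not. Because the choice was made with the values in view, their levels and differences are given as a description with no p-value, and counts of them past a threshold stand only beside the same count over all genes.

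Transcriptomes of mouse thymic lymphomas were sequenced in 13 libraries of polyadenylated RNA made from single-cell suspensions. The lymphomas came from 5 Atm-/- mice (strain 129S6/SvEv), which lack the ATM kinase of the DNA damage response, and from 5 Rag2c/c p53-/- mice (mixed C57BL/6 and 129S6/SvEv), which carry the shortened core form of the RAG2 recombinase subunit and no p53. Thymuses of 3 wild type (WT) C57BL/6 mice, taken over from an earlier series, served as controls, and the ages of the mice are not given in the labels. Each library is a different mouse, so the spread within a group is the spread between mice. Each genotype has its own strain background, and the WT libraries come from another series, so strain, series and genotype cannot be told apart. A tumor of each lymphoma mouse was set against a whole normal thymus, so a smaller number of cells of a type and less RNA per cell cannot be told apart either.

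Values are the authors' normalized counts, reads per gene scaled to a common depth and rounded to whole numbers. A single read was worth 0.51 to 3.375 normalized counts, which puts the libraries at 6.37 to 38.84 M counted reads (WT median 34.14, Atm-/- 13.52, Rag2c/c p53-/- 20.37), and 3 reads correspond to 1.53 to 10.13 normalized counts. Levels of a few normalized counts are therefore at the limit of detection, most of all in WT thymus 2 and Rag2c/c p53-/- lymphoma 2, where a value of 3 is a single read. The thymocyte genes Cd3e (7309 to 18552 in the lymphomas) and Lck (15165 to 30142) were high in every tumor, whereas the thymic epithelial proteasome subunit Psmb11 was at 36 to 122 in WT thymus and at 0 or 1 in the lymphomas. Of 6 thymic epithelial genes, 3 were below WT thymus in all Atm-/- lymphomas and 5 in all Rag2c/c p53-/- lymphomas. Only 2, Foxn1 and Psmb11, were below it in all 10. Ccl25 was at 260 to 296 in WT thymus and at 227 to 429 in the Rag2c/c p53-/- lymphomas. Atm was at 1559 to 2274 in WT thymus, 208 to 732 in the Atm-/- lymphomas and 439 to 1315 in the Rag2c/c p53-/- lymphomas, which carry no Atm mutation in their labels. Trp53 was at 4387 to 6341 in WT thymus, 6853 to 11318 in the Atm-/- lymphomas and 2018 to 5461 in the Rag2c/c p53-/- lymphomas. Rag2 was at 4199 to 5409 in WT thymus and lower in all 10 lymphomas. It was at 260 to 790 in the Rag2c/c p53-/- lymphomas and at 46 to 1025 in the Atm-/- lymphomas, which carry no Rag2 mutation in their labels. Neither engineered allele need remove the reads of its gene.

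Imprinted genes are transcribed mainly from the copy inherited from a single parent, a choice recorded as DNA methylation at control regions that each govern a cluster of genes. Several of them set fetal growth in opposite directions, with paternally expressed genes such as Igf2, Dlk1, Peg3 and Plagl1 and maternally expressed genes such as H19, Igf2r, Meg3 and Cdkn1c. The H19 and Igf2 pair shares enhancers behind an insulator that the protein CTCF binds on the maternal copy. The parental origin of the reads was not measured here.

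H19 (ENSMUSG00000000031) is a spliced long noncoding RNA at chr7:142575529-142578143 on the minus strand of GRCm38, annotated as a lincRNA. Its transcript carries the hairpin of the microRNA Mir675 at chr7:142577064-142577147, minus strand. The hairpin is shown with its mature arms in capitals, and the arms with their seed (bases 2 to 8) in capitals, all from RefSeq (GRCm38.p6), because they are the product for which the H19 transcript is best known. The microRNAs themselves were not measured, and the Mir675 entry of the table was at 0 in all 13 libraries.

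Mir675 hairpin: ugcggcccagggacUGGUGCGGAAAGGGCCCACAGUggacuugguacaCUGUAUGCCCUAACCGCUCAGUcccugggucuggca

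miR-675-5p: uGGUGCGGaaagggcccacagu

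miR-675-3p: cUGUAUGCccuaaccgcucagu

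Igf2 (ENSMUSG00000048583), which encodes insulin-like growth factor II, lies in the same domain at chr7:142650766-142666816 on the minus strand. Dlk1 (ENSMUSG00000040856), a transmembrane protein related to the Delta ligands, lies at chr12:109452823-109463336 on the plus strand, and Meg3 (ENSMUSG00000021268), a long noncoding RNA, at chr12:109541001-109571726 on the same strand. The 300-base promoter windows of these genes (250 bases before to 50 after an annotated start, RefSeq, GRCm38.p6, printed on the gene's strand) are shown since these are the genes whose highest lymphoma was a single Rag2c/c p53-/- tumor, described below. Capitals mark matches, on either strand, to the TATA box TATAAA, the GC box GGGCGG, the E box CACGTG or the cyclic AMP response element TGACGTC.

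Igf2, chr7:142657447-142657746, minus strand: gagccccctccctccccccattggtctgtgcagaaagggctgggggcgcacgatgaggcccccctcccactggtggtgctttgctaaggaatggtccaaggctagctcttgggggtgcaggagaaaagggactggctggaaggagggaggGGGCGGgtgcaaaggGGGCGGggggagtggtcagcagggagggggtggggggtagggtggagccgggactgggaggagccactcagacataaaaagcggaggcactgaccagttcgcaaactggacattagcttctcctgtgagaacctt

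Dlk1, chr12:109452573-109452872, plus strand: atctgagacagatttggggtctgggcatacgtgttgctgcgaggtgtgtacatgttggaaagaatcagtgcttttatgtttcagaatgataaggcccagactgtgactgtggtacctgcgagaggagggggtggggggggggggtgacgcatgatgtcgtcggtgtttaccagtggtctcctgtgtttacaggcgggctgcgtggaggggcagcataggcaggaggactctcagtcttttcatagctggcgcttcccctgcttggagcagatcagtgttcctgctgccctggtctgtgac

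Meg3, chr12:109540746-109541045, plus strand: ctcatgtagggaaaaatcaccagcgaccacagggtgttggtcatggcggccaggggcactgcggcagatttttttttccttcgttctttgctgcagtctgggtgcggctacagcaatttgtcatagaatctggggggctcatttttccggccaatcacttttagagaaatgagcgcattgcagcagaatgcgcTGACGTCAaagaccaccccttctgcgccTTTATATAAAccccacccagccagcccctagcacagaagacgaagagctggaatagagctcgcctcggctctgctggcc

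The Meg3 window, the first of 2 in the reference, held a TATA box, which reads as a match on both strands at 29 and 25 bases before the start (positions -29 and -25), and a cyclic AMP response element at -57 that also matches on both strands with an overlap of all but 1 base. The second Meg3 window, not shown, held none of the motifs. The Igf2 window, at the most downstream of the 4 Igf2 starts in the reference, held 2 GC boxes at -100 and -85, and the Dlk1 window none of the motifs. Of 32851 promoter windows in the reference, 13.6% held the TATA box, 35.7% the GC box, 7.15% the E box and 3.21% the cyclic AMP response element, so matches of this kind are a description of the letters and not of a bound factor. Promoter windows were found for 6 of the 8 genes (10 windows, 6 of them with any motif), with no entry used here for H19 and Cdkn1c.

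H19 was at 693, 682 and 566 normalized counts in the WT thymuses. It was at 80, 395, 172, 83 and 80 in the Atm-/- lymphomas, and at 47, 3, 28, 2593 and 15 in the Rag2c/c p53-/- lymphomas. All 5 Atm-/- tumors and 4 of the 5 Rag2c/c p53-/- tumors lay below the lowest WT thymus, and Rag2c/c p53-/- lymphoma 4 lay above all of them, 4.01 times the WT mean of 647. The mean log2(value + 1) of the Atm-/- lymphomas was lower than that of WT thymus by a difference of -2.31 ± 0.46 (SE, n = 5 and 3), a 4.95-fold lower level. For the Rag2c/c p53-/- lymphomas the difference was -3.78 ± 1.57, and it was -5.22 without lymphoma 4. In WT thymus, H19 lay above 56.3% of the genes tested by normalized counts, which are not corrected for transcript length.

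Per kilobase of annotated exon, the scale on which levels of different genes can be set side by side, H19 had a median of 277 normalized counts in WT thymus, 33.7 in the Atm-/- lymphomas and 11.4 in the Rag2c/c p53-/- lymphomas. In Rag2c/c p53-/- lymphoma 4 it reached 1054 per kilobase, above Cdkn1c in the same tumor (904). The small RNA genes Gm27786 and Gm27483, which overlap H19 on the opposite strand, were at 0 to 5 and 0 to 6.

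Igf2 was at 17, 6 and 17 normalized counts in WT thymus, at 34, 11, 59, 24 and 25 in the Atm-/- lymphomas and at 23, 3, 67, 372 and 19 in the Rag2c/c p53-/- lymphomas. The groups overlapped: 8 of 10 lymphomas lay above the highest WT thymus and Rag2c/c p53-/- lymphoma 2 lay below the lowest. Lymphoma 4 of that group was again the highest, at 27.9 times the WT mean and 5.55 times the next lymphoma. The difference from WT was 1.08 ± 0.59 log2 units for the Atm-/- lymphomas and 1.39 ± 1.17 for the Rag2c/c p53-/- lymphomas, the latter 0.53 without lymphoma 4. Even in that tumor Igf2 was at 65.0 normalized counts per kilobase against 1054 for H19, and in the other libraries it was at 0.52 to 11.7.

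Igf2 and H19 stood in different proportions from library to library. Per kilobase, the Igf2 level was 0.4 to 1.3% of the H19 level in the WT thymuses and 1.2 to 18.3% in the Atm-/- lymphomas. In the Rag2c/c p53-/- lymphomas the proportion was 21.0% in lymphoma 1, 43.0% in lymphoma 2 (from 1 read of each), 102.9% in lymphoma 3, 6.2% in lymphoma 4 and 54.4% in lymphoma 5. The tumor with the highest level of both genes thus had the lowest proportion of its group. The neighbour Ins2, an insulin gene, was at 0 or 1 in every library, and the antisense gene Igf2os, which overlaps Igf2, at 0 to 12.

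**Figure D1:**
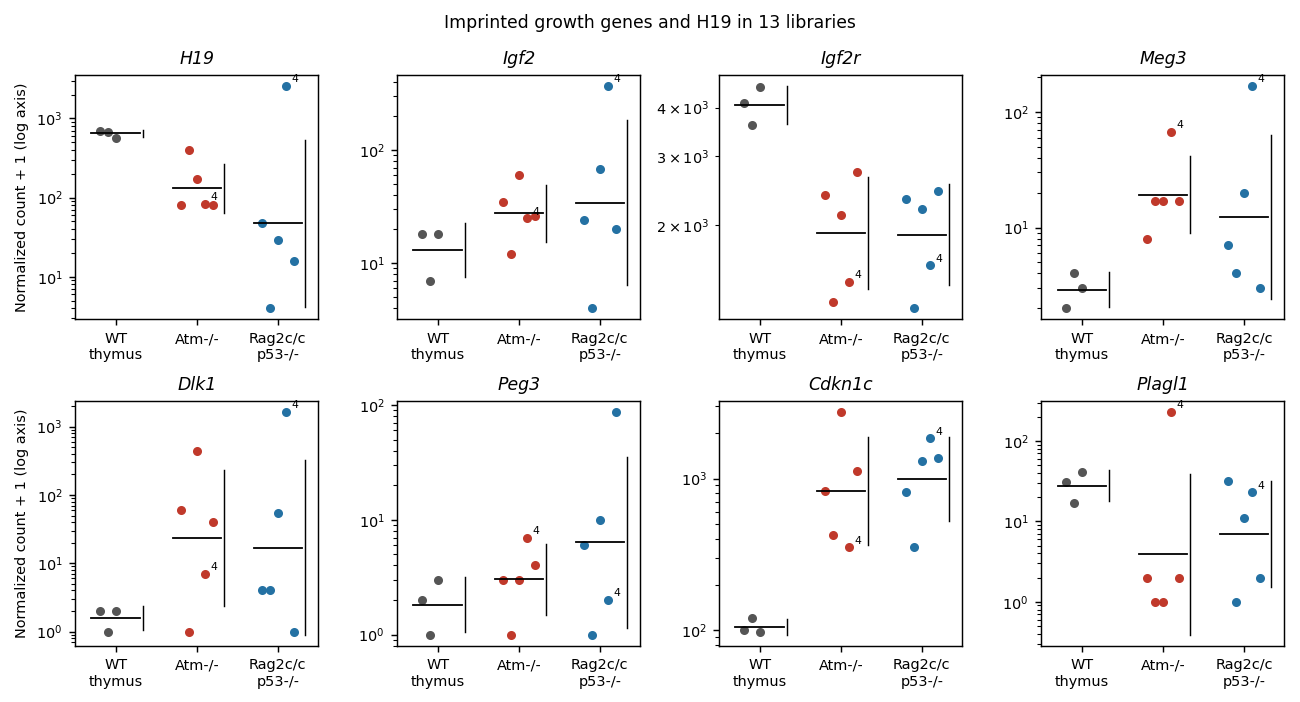
Normalized counts plus 1 on log axes for the 8 genes, a panel per gene, with a point per library (grey, 3 WT thymuses; red, 5 Atm-/- lymphomas; blue, 5 Rag2c/c p53-/- lymphomas). Horizontal lines are means and vertical lines ± 1 SD of log2(value + 1), the digit 4 marks lymphoma 4 of each genotype, and Cdkn1c and Igf2r are the panels in which all 10 lymphomas lie on the same side of the WT thymuses.

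Igf2r (ENSMUSG00000023830, chr17:12682406-12769664, minus strand) encodes the receptor that takes up insulin-like growth factor II for degradation and also sorts lysosomal enzymes. It was at 4100, 3603 and 4531 normalized counts in WT thymus, where it lay above 92.2% of the genes tested, with no correction for transcript length. The Atm-/- lymphomas had 2382, 1263, 2122, 1427 and 2726, and the Rag2c/c p53-/- lymphomas 2328, 1219, 2196, 1572 and 2435. The lowest values, 1219 and 1263, were in the shallowest lymphoma libraries (6.37 and 9.24 M counted reads). WT thymus 2, the shallowest of its group (6.68 M), had the lowest WT value, 3603. The part of depth in these levels was not tested. All 10 lymphomas were below all 3 WT thymuses, as was so for 18.2% of the genes tested. The difference was -1.09 ± 0.23 log2 units for the Atm-/- lymphomas, 2.14-fold lower, and -1.11 ± 0.21 for the Rag2c/c p53-/- lymphomas, 2.15-fold lower. Leaving out each library in turn moved these between -1.22 and -0.95 and between -1.20 and -0.95, which is across a fold threshold of 1.

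Airn, the paternally expressed noncoding RNA that runs through Igf2r on the opposite strand (chr17:12741311-12860122), was at 445, 370 and 519 in WT thymus, 247, 267, 141, 184 and 234 in the Atm-/- lymphomas and 295, 230, 257, 156 and 232 in the Rag2c/c p53-/- lymphomas. Every lymphoma was below every WT thymus for Airn too. The library kit keeps the strand, but whether the counting used it is not given in the sources used here, so reads of Igf2r and Airn in the shared stretch cannot be told apart with certainty. Per kilobase, the Airn level was 26.6 to 29.6% of the Igf2r level in WT thymus, 17.2 to 54.7% in the Atm-/- lymphomas and 24.7 to 48.8% in the Rag2c/c p53-/- lymphomas.

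Meg3 was at 1, 3 and 2 normalized counts in WT thymus, which is at the limit of detection. It was at 7, 16, 16, 66 and 16 in the Atm-/- lymphomas, all above the WT thymuses, and at 6, 3, 19, 168 and 2 in the Rag2c/c p53-/- lymphomas, of which 3 were above. Lymphoma 4 was the highest of each genotype. No fold against WT is given because the WT values were 3 normalized counts or less.

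Dlk1 was at 1, 0 and 1 in WT thymus, and its level differed widely between tumors. The Atm-/- lymphomas had 59, 0, 437, 6 and 39 normalized counts and the Rag2c/c p53-/- lymphomas 3, 3, 53, 1639 and 0. A single tumor of each genotype held most of the group's counts, lymphoma 3 of the Atm-/- group and lymphoma 4 of the Rag2c/c p53-/- group, and 1 tumor of each genotype was at 0. The SD of log2(value + 1) of Dlk1 was 3.32 in the Atm-/- lymphomas and 4.23 in the Rag2c/c p53-/- lymphomas, larger than that of 99.61% and 99.96% of expressed genes, whose median SD was 0.395 and 0.452. For scale, Dlk1 reached 290 normalized counts per kilobase in Rag2c/c p53-/- lymphoma 4, and Meg3, in the same domain, 9.29, over an annotated length that includes retained introns.

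Of the other noncoding RNAs transcribed downstream of Meg3, Rian was highest in lymphoma 4 of each genotype, and Mirg stood out in Rag2c/c p53-/- lymphoma 4 alone. Rian, which hosts small nucleolar RNAs, was at 125 in Rag2c/c p53-/- lymphoma 4 and at 0 to 2 in the other tumors of that genotype, at 36 in Atm-/- lymphoma 4 and 2 to 8 in the others, and at 0 to 2 in WT thymus. Mirg, a microRNA host, was at 35 in Rag2c/c p53-/- lymphoma 4 and at 0 to 4 in the other 12 libraries. Rtl1, a retrotransposon-derived gene on the paternal copy, was at 0 in all 13. Dio3, which encodes a deiodinase at the far end of the domain, was at 17 in Atm-/- lymphoma 4 and at 1 in Rag2c/c p53-/- lymphoma 4, so it was not among the genes that were high in the latter. Atm-/- lymphoma 3, with the second highest Dlk1, had 5 of Rian, 0 of Mirg and 16 of Meg3.

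**Figure D2:**
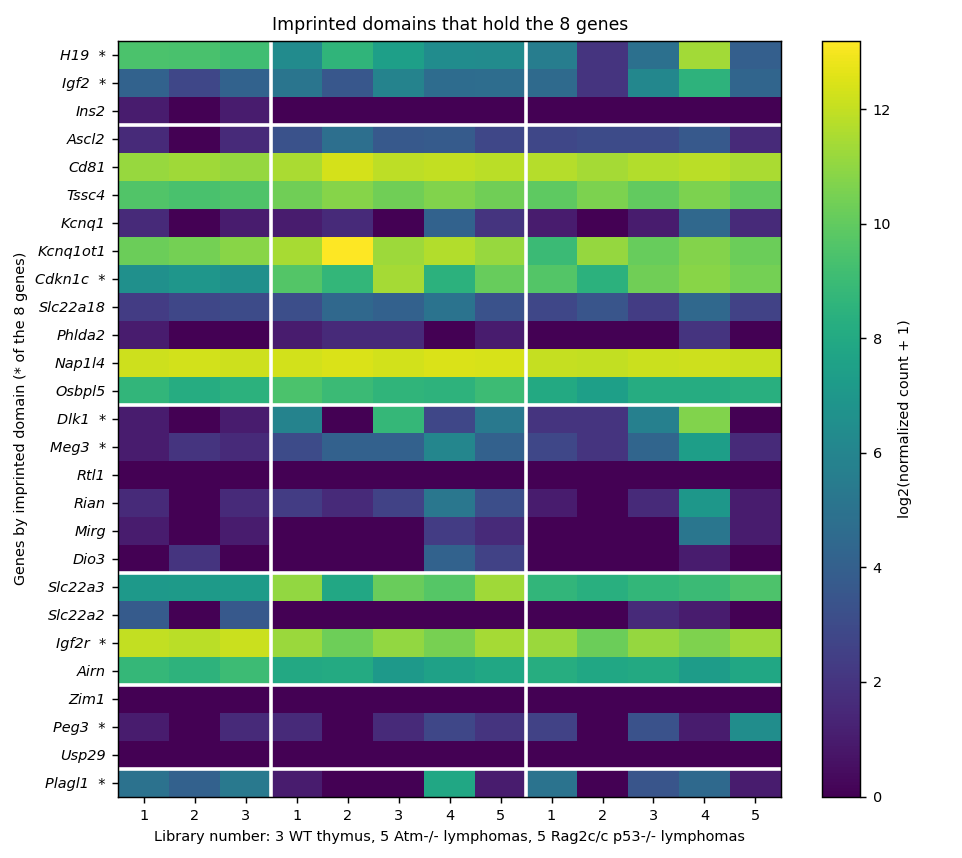
log2(normalized count + 1), as colour, of the genes of each imprinted domain (rows, an asterisk marks the 8 genes) in the 13 libraries (columns; white lines part the domains and the 3 groups). Rag2c/c p53-/- lymphoma 4 has H19 at 2593, Igf2 at 372, Dlk1 at 1639, Meg3 at 168 and Rian at 125 normalized counts, while Rtl1, Zim1 and Usp29 are at 0 throughout.

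Cdkn1c (ENSMUSG00000037664, chr7:143458350-143461050, minus strand) encodes p57, an inhibitor of cyclin-dependent kinases. It was at 99, 120 and 96 normalized counts in WT thymus, at 823, 425, 2745, 350 and 1116 in the Atm-/- lymphomas and at 816, 355, 1308, 1843 and 1367 in the Rag2c/c p53-/- lymphomas. All 10 lymphomas were above all 3 WT thymuses, the lowest at 350 against a highest WT value of 120, as was so for 13.6% of the genes tested. The difference was 2.96 ± 0.54 log2 units, or 7.80-fold, for the Atm-/- lymphomas and 3.23 ± 0.43, or 9.40-fold, for the Rag2c/c p53-/- lymphomas. Leaving out each library in turn gave 2.53 to 3.27 and 3.01 to 3.60. Per kilobase, Cdkn1c had a median of 48.6 in WT thymus, below H19, and of 404 and 641 in the lymphomas, above both H19 and Igf2r.

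Cdkn1c lies in the domain of Kcnq1ot1, a long noncoding RNA of the paternal copy. Kcnq1ot1 was at 1183, 1364 and 1868 in WT thymus, at 2787, 9354, 2468, 3303 and 2320 in the Atm-/- lymphomas and at 511, 2232, 1104, 1706 and 1185 in the Rag2c/c p53-/- lymphomas. All 5 Atm-/- lymphomas lay above WT thymus, whereas the Rag2c/c p53-/- lymphomas lay on both sides of it. Cdkn1c and Kcnq1ot1 did not share their order: the Atm-/- tumor with the highest Kcnq1ot1, lymphoma 2, had the second lowest Cdkn1c of its group, at 425. Kcnq1ot1 was highest in lymphoma 2 of each genotype, the shallowest library of each (9.24 and 6.37 M counted reads). The part of depth in this order was not tested. Elsewhere in the domain the tetraspanin gene Cd81 was at 2239 to 2573 in WT thymus and 2715 to 5264 in the lymphomas, and Tssc4 at 682 to 775 and 959 to 1765, each with all lymphomas above all WT thymuses. Nap1l4 (4714 to 5016 in WT) and Osbpl5 (286 to 408) had lymphomas on both sides. Nap1l4 was at 5016 to 5526 in the Atm-/- and 4110 to 4723 in the Rag2c/c p53-/- lymphomas, and Osbpl5 at 370 to 691 and 172 to 314. The genotypes did not overlap for either gene, as for 8.33% of all genes, and neither was called between them. Phlda2, a growth restraining gene of placenta, was at 0 to 3 in every library and the channel gene Kcnq1 at 0 to 3 outside lymphoma 4 of each genotype, where it was at 17 and 21.

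Plagl1 (ENSMUSG00000019817, chr10:13060504-13131694, plus strand) encodes a zinc finger transcription factor that restrains cell division. It was at 30, 16 and 40 normalized counts in WT thymus, at 1, 0, 0, 228 and 1 in the Atm-/- lymphomas and at 31, 0, 10, 22 and 1 in the Rag2c/c p53-/- lymphomas. Of the 10 lymphomas, 7 were below the lowest WT thymus, among them 4 Atm-/- tumors at 1 or 0. Atm-/- lymphoma 4 was at 7.95 times the WT mean and 7.35 times the next tumor. The difference of the Atm-/- group from WT was -2.83 ± 1.53 log2 units with this tumor and -4.30 without it.

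Peg3 (ENSMUSG00000002265, chr7:6703892-6730421, minus strand), which encodes a zinc finger protein known from maternal behaviour and fetal growth, was at 1, 0 and 2 in WT thymus and 2, 0, 2, 6 and 3 in the Atm-/- lymphomas. The Rag2c/c p53-/- lymphomas had 5, 0, 9, 1 and 86. Only Rag2c/c p53-/- lymphoma 5 reached 10 normalized counts. Its neighbours Usp29 and Zim1 were at 0 in all 13 libraries.

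With all libraries, the ranges of the 2 lymphoma genotypes overlapped for all 8 genes. Each of the 8 differences between Atm-/- and Rag2c/c p53-/- lymphomas was smaller than its own SE, from 0.01 ± 0.29 log2 units for Igf2r and -0.27 ± 0.67 for Cdkn1c to 1.47 ± 1.63 for H19. For H19 both statements rest on Rag2c/c p53-/- lymphoma 4: the other 4 tumors of its genotype (3 to 47) lay below all 5 Atm-/- lymphomas (80 to 395), and without it the difference was 2.92. The SE reached 2.41 for Dlk1, so differences of several fold could not be resolved for the genes that vary most between tumors.

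All genes were compared between groups with limma, which gives the background for the members. A gene was called where the Benjamini-Hochberg adjusted p over the 15872 genes tested was under 0.05, the log2 fold change was 1 or more in size and either group averaged 10 or more. Of the 7 members tested, 2 were called in Atm-/- lymphomas against WT thymus, Cdkn1c higher (as were 12.6% of all genes) and Igf2r lower (17%), 29.5% of all genes being called in either direction. The same 2 were called in Rag2c/c p53-/- lymphomas, where 9.77% of all genes were called higher, 13.9% lower and 23.6% in either direction. Between the lymphoma genotypes 0 of 7 were called, beside 7.84% of all genes, and 0 of 7 did not overlap, beside 8.33%.

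Atm-/- lymphomas and WT thymus did not overlap for Meg3 and Cdkn1c (higher, as for 23.4% of all genes) and for H19 and Igf2r (lower, 27.9%). For Rag2c/c p53-/- lymphomas this held for Cdkn1c (higher, 19.7%) and Igf2r (lower, 24.2%). Both comparisons share the WT thymuses, and the members were chosen on the same values, so nothing is read from these counts.

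The members differed widely in their spread between tumors. In the Rag2c/c p53-/- lymphomas the SD of log2(value + 1) was 3.50 for H19, 2.41 for Igf2, 2.36 for Meg3 and 2.20 for Plagl1, above 99.72%, 98.42%, 98.18% and 97.69% of expressed genes, whereas Cdkn1c (0.927) was above 82.33% and Igf2r (0.43) above 47.34%. In the Atm-/- lymphomas Plagl1 had an SD of 3.32, above 99.61% of genes, and H19 one of 1.01, above 84.71%. In WT thymus the SD of H19 was 0.162, close to the median of 0.145. These positions are for genes picked with their values known, and several rest in part on values of a few normalized counts, at the limit of detection.

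Of the 8 genes, 4 had their highest lymphoma value in Rag2c/c p53-/- lymphoma 4 (H19, Igf2, Meg3 and Dlk1). Markers of other cell types were compared in this tumor and across the groups. The summed level of 8 fibroblast genes was 557 to 597 in WT thymus, 6071 to 20672 in the Atm-/- lymphomas and 7257 to 14013 in the Rag2c/c p53-/- lymphomas, with 6 of the 8 genes above WT in all lymphomas, the same direction as Cdkn1c. The matrix gene Fbln1 alone made 3899 to 11805 of the Rag2c/c p53-/- sums. Dcn and Lum overlapped WT thymus in both genotypes. In the Rag2c/c p53-/- lymphomas Dcn was at 38 to 246 (WT 50 to 55) and Lum at 0 to 6 (WT 3 to 9). Lymphoma 4 had the highest sum of its genotype (14013), of which Fbln1 made 11805. This tumor was the highest of the 10 lymphomas for 2 of the 8 genes, Fbln1 and Pdgfra (174, against 6 to 41 in the other 4 of its genotype), while Col1a1 was at 440 there against 128 to 631 and Lum at 1 against 0 to 6. The part of these cells in the levels of H19, Igf2, Meg3 and Dlk1 was not tested. The endothelial sum of lymphoma 4 over 6 genes was 13, within the 6 to 33 of its group and under the 38 to 87 of WT thymus. Its myeloid sum over 6 genes was 7640, the highest of its group (3718 to 7640).

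Atm-/- lymphoma 4, the tumor with the highest Plagl1 and the second highest Meg3 and Rian, was the highest of the 10 lymphomas for 6 of 6 endothelial genes (sum 195, against 4 to 42 in the other Atm-/- tumors), for 5 of 8 fibroblast genes (sum 20672) and for 5 of 6 myeloid genes (sum 10874). The part of these cells in the levels of Plagl1, Meg3 and Rian was not tested. The summed level of 8 thymocyte genes was 147700 to 225334 in WT thymus, 52660 to 106310 in the Atm-/- lymphomas and 89798 to 125504 in the Rag2c/c p53-/- lymphomas. Of the 8 genes, 5 were below WT thymus in all Atm-/- lymphomas (Cd4, Cd8a, Cd8b1, Rag1 and Dntt). In all Rag2c/c p53-/- lymphomas 2 were below it (Rag1 and Dntt). Rag1 alone made 48182 to 70834 of the WT sums. Thymic epithelial genes summed to 543 to 856, 164 to 594 and 272 to 462, skeletal muscle genes to 532 to 594, 196 to 683 and 257 to 476, and adipocyte genes to 31 to 62, 101 to 380 and 145 to 249. The part of these cells in the differences of H19, Igf2r and Cdkn1c was not tested.

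**Figure D3:**
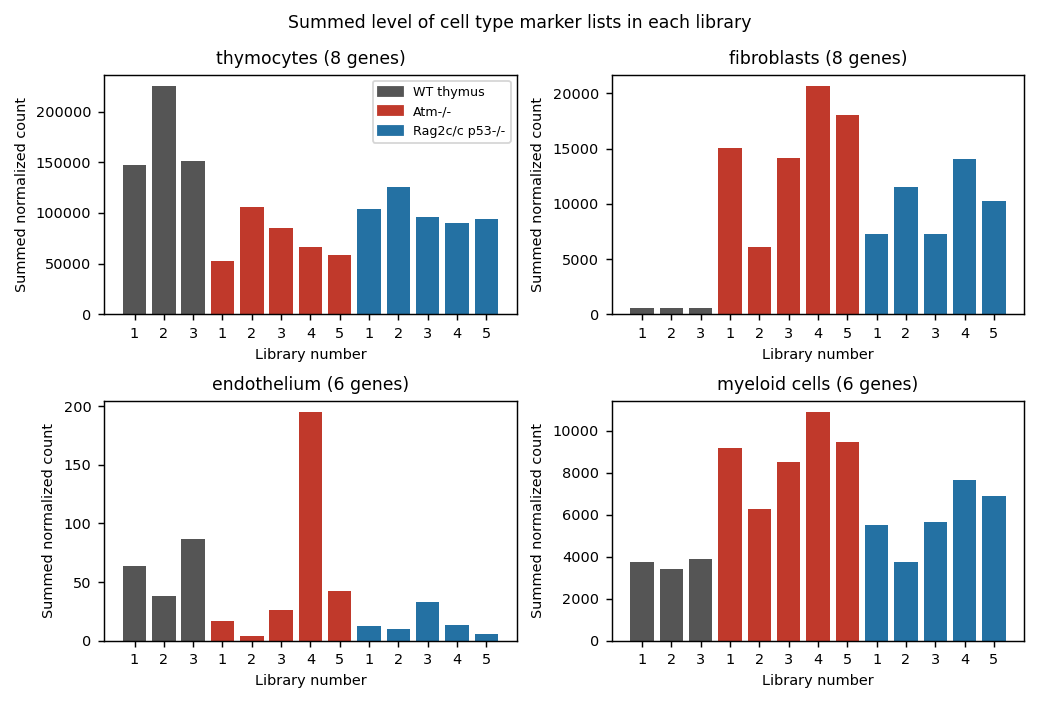
Summed normalized counts of the marker genes of thymocytes, fibroblasts, endothelium and myeloid cells (bars from 0, linear axes) in each library. Fibroblast sums are 557 to 597 in WT thymus and 6071 to 20672 in the lymphomas, and the endothelial sum stands highest, at 195, in Atm-/- lymphoma 4.

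Other imprinted genes were examined as a list, of which 48 were in the table and 26 passed the filter. In Atm-/- lymphomas against WT thymus 8 of the 26 were called, 5 higher and 3 lower (30.8%, beside 29.5% of all genes), and in Rag2c/c p53-/- lymphomas 4 of the 26, 3 higher and 1 lower (15.4%, beside 23.6%). Their median log2 fold changes were 0.31 and -0.02, beside -0.02 over all genes in both comparisons. Between the genotypes 2 of the 26 were called, 1 higher and 1 lower (7.69%, beside 3.51% of all genes higher and 4.33% lower). Fold changes of these lists are given with the SE of the limma fit.

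Ddc, which encodes the decarboxylase that makes dopamine and serotonin and lies beside Grb10, had the largest rise among those called in both genotypes. It went from 70, 55 and 64 normalized counts in WT thymus to 616, 836, 1293, 220 and 1559 in the Atm-/- lymphomas (log2 fold change 3.55 ± 0.52, limma adjusted p = 0.00016) and to 1411, 838, 725, 1212 and 509 in the Rag2c/c p53-/- lymphomas (3.79 ± 0.52, limma adjusted p = 0.00016). Every lymphoma was above every WT thymus. Grb10 itself, an inhibitor of insulin receptor signalling, was at 10 to 14 in WT thymus and at 0 to 204 in the lymphomas, and did not pass.

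Slc22a3, an organic cation transporter gene beside Igf2r, was at 138, 143 and 150 in WT thymus, 2143, 242, 1138, 833 and 2552 in the Atm-/- lymphomas and 409, 324, 430, 510 and 714 in the Rag2c/c p53-/- lymphomas. It rose in both, by 2.86 ± 0.57 (limma adjusted p = 0.0015) and by 1.68 ± 0.57 (limma adjusted p = 0.035), the second call being lost when any of the 3 WT thymuses or Rag2c/c p53-/- lymphoma 4 or 5 was left out (adjusted p 0.0617 to 0.0981). Within the Igf2r domain Slc22a3 was thus higher in all 10 lymphomas in which Igf2r and Airn were lower. Airn fell in the Atm-/- lymphomas, by a log2 fold change of -1.07 ± 0.27 (limma adjusted p = 0.0061), which came under the fold threshold without WT thymus 3 (-0.95) or Atm-/- lymphoma 3 (-0.93). In the Rag2c/c p53-/- lymphomas its change of -0.94 ± 0.27 did not reach the fold threshold (limma adjusted p = 0.015). Slc22a2, between them, was at 13, 0 and 12 in WT thymus and at 0 to 2 in the lymphomas.

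Sfmbt2, a Polycomb-associated gene, fell in both genotypes from 361 to 546 in WT thymus to 160 to 238 and 141 to 253 (-1.28 ± 0.26, limma adjusted p = 0.0016, and -1.20 ± 0.26, limma adjusted p = 0.0034). Nespas, an antisense RNA of the Gnas domain, rose in both, from 19 to 40 to 64 to 104 and 43 to 196 (1.48, limma adjusted p = 0.020, and 1.74, limma adjusted p = 0.010). The Nespas calls were lost without WT thymus 1 or 2 in the Atm-/- comparison and without WT thymus 2 in the other (adjusted p 0.0544 to 0.0927 and 0.0577). Gnas, the host gene, was at 7994 to 12799 in WT thymus and 6933 to 13682 in the lymphomas.

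Ascl2, Kcnq1ot1 and Peg10 were also called in the Atm-/- lymphomas. Ascl2, a transcription factor gene of the Cdkn1c domain, was at 2, 0 and 2 in WT thymus and at 9, 27, 12, 13 and 6 in the Atm-/- lymphomas (limma adjusted p = 0.0038), and at 2 to 12 in the Rag2c/c p53-/- lymphomas. The genotypes were not shown to differ for Ascl2 (0.87 ± 0.53, limma adjusted p = 0.32). Kcnq1ot1 rose by 1.26 ± 0.48 (limma adjusted p = 0.045), a call that was lost in 9 of the 13 fits that left out a library (adjusted p 0.0502 to 0.147), those without any of the 3 WT thymuses, Atm-/- lymphomas 1, 2 or 4 or Rag2c/c p53-/- lymphomas 3, 4 or 5. Kcnq1ot1 was also higher in Atm-/- than in Rag2c/c p53-/- lymphomas (1.52 ± 0.41, limma adjusted p = 0.030), a call lost without Atm-/- lymphoma 4 or Rag2c/c p53-/- lymphoma 1, 3 or 5 (adjusted p 0.0561 to 0.0644).

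Peg10, a retrotransposon-derived gene of placenta, was at 21, 26 and 31 in WT thymus and at 0, 2, 0, 2 and 0 in the Atm-/- lymphomas, where it fell (limma adjusted p = 0.015, 0.0569 without WT thymus 3 and 0.0533 with a pseudocount of 5). In the Rag2c/c p53-/- lymphomas it was at 3, 223, 3, 6 and 115, higher than WT thymus in lymphomas 2 and 5 and lower in the other 3. The genotypes differed for Peg10 (limma adjusted p = 0.039), with the call lost in 9 of the 13 fits that left out a library (adjusted p 0.0547 to 0.0905), which are those without any WT thymus, Atm-/- lymphomas 1, 3, 4 or 5 or Rag2c/c p53-/- lymphomas 2 or 5. Sgce, transcribed away from Peg10 and coding for a sarcoglycan, was at 28, 10 and 28 in WT thymus and likewise highest in Rag2c/c p53-/- lymphomas 2 and 5 (34 and 19, against 1 to 12 in the other 3). No member had its highest value in lymphoma 2, and Peg3 had its highest in lymphoma 5.

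**Figure D4:**
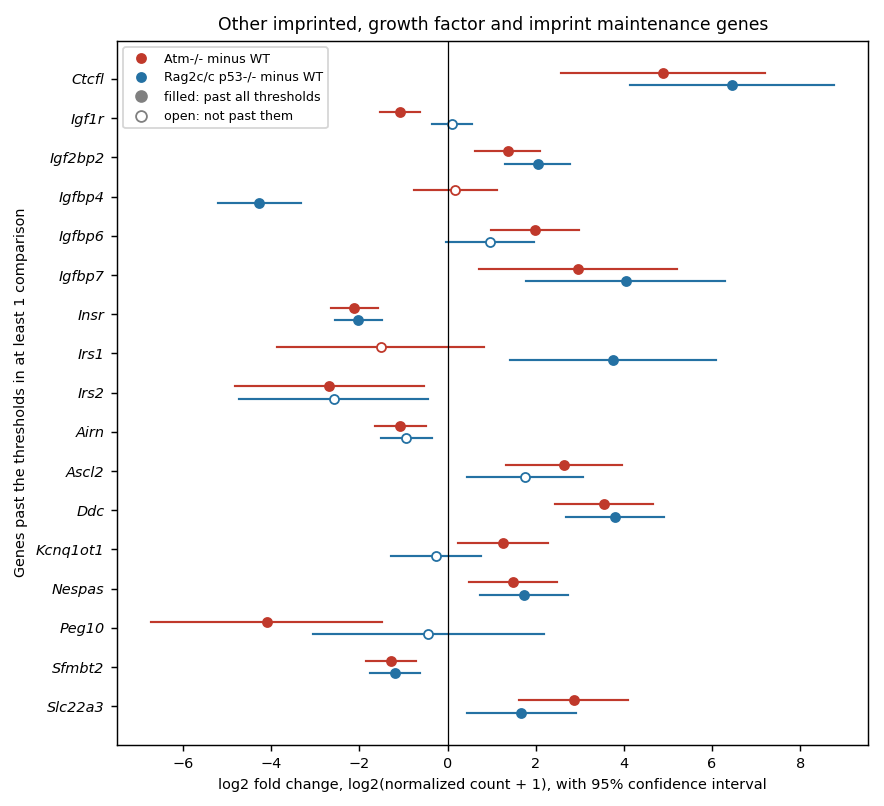
log2 fold changes against WT thymus, on log2(normalized count + 1), with 95% confidence intervals, of the other imprinted, insulin-like growth factor and imprint maintenance genes called in at least 1 comparison (red, Atm-/-; blue, Rag2c/c p53-/-; filled points passed all thresholds). Ddc, Ctcfl, Insr and Igf2bp2 pass in both genotypes, and Igfbp4 and Irs1 pass only in the Rag2c/c p53-/- lymphomas.

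The pathway that Igf2 and Igf2r belong to was followed in 16 genes of insulin-like growth factor signalling, of which 13 were tested. In Atm-/- lymphomas 6 of the 13 were called, 3 higher and 3 lower, and in Rag2c/c p53-/- lymphomas 5 of the 13, 3 higher and 2 lower (46.2% and 38.5%, beside 29.5% and 23.6% of all genes). Their median log2 fold changes were 0.18 and 0.10. Between the genotypes 3 of the 13 were called, 1 higher and 2 lower (23.1%, beside 7.84% of all genes). Among ligands, Igf1 was at 192 to 276 in WT thymus and 84 to 351 in the lymphomas and did not pass, and Ins1 was at 0 throughout.

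The receptors and adaptors included the lower levels. Insr, the insulin receptor, fell from 2240, 1858 and 2534 in WT thymus to 434 to 560 in the Atm-/- lymphomas (-2.12 ± 0.25, limma adjusted p = 3.4e-05) and to 328 to 788 in the Rag2c/c p53-/- lymphomas (-2.03 ± 0.25, limma adjusted p = 7.5e-05). Igf1r, the receptor through which the growth factors signal, fell in the Atm-/- lymphomas alone, from 774, 705 and 953 to 502, 285, 321, 442 and 386 (-1.08 ± 0.21, limma adjusted p = 0.0012), a change just under the fold threshold without WT thymus 3 (-0.96) or Atm-/- lymphoma 2 (-0.98). In the Rag2c/c p53-/- lymphomas Igf1r was at 819, 1081, 740, 955 and 760, and the genotypes differed by -1.18 ± 0.18 (limma adjusted p = 0.0011).

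The adaptor gene Irs1 was at 13, 16 and 11 in WT thymus, 2, 0, 54, 0 and 17 in the Atm-/- lymphomas and 316, 105, 226, 160 and 205 in the Rag2c/c p53-/- lymphomas. It rose in the latter (3.75 ± 1.09, limma adjusted p = 0.016, and 0.0542 to 0.0612 without WT thymus 1 or 3) and differed between genotypes by -5.27 ± 0.94 (Atm-/- minus Rag2c/c p53-/-, limma adjusted p = 0.0033). Irs2, its relative, was at 405 to 454 in WT thymus and 12 to 293 in all 10 lymphomas. It fell in the Atm-/- lymphomas (-2.68 ± 0.998, limma adjusted p = 0.042), with the call lost in 8 of the 13 fits without a library (adjusted p 0.0505 to 0.11; any WT thymus, Atm-/- lymphoma 2, 3 or 5, Rag2c/c p53-/- lymphoma 3 or 5), and in the other genotype its change was -2.58 ± 0.998 (limma adjusted p = 0.056).

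Igfbp4, a secreted binding protein, was abundant in WT thymus and in the Atm-/- lymphomas and scarce in the other genotype. It was at 2322, 2323 and 2224 in WT thymus, at 4123, 1208, 2176, 2657 and 4038 in the Atm-/- lymphomas and at 80, 159, 262, 100 and 67 in the Rag2c/c p53-/- lymphomas. No Rag2c/c p53-/- tumor came near the other 2 groups, and the genotypes differed by 4.45 ± 0.38 log2 units (limma adjusted p = 7.8e-06). Against WT thymus the Rag2c/c p53-/- lymphomas fell, with a log2 fold change of -4.27 ± 0.44 (limma adjusted p = 2.4e-05).

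Igfbp7 rose in both genotypes, from 13 to 23 to 38 to 684 and 41 to 1541 (2.96 ± 1.05, limma adjusted p = 0.035, and 4.04 ± 1.05, limma adjusted p = 0.0089), the first call being lost without any WT thymus or without Atm-/- lymphoma 3, 4 or 5 (adjusted p 0.0596 to 0.105). It was highest in lymphoma 4 of each genotype. Igfbp6 rose in the Atm-/- lymphomas (4 to 13 in WT, 21 to 51, limma adjusted p = 0.0041). Igfbp3 was not called, and had 1343 normalized counts in Rag2c/c p53-/- lymphoma 4 against 0 to 16 in the other tumors of that genotype, and 167 in Atm-/- lymphoma 4. The tumor with the highest H19, Igf2 and Dlk1 was therefore also the highest for Igfbp3 and Igfbp7.

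Among RNA-binding proteins named for binding the Igf2 message, Igf2bp2 rose in both genotypes (140 to 187 in WT, 199 to 591 and 393 to 946, log2 fold changes 1.37 ± 0.34 and 2.04 ± 0.34, limma adjusted p = 0.0059 and 0.00062). Igf2bp3 was at 723 to 868 in WT thymus and spread from 3 (Rag2c/c p53-/- lymphoma 2) to 3352 (Atm-/- lymphoma 4) without passing. Igf2bp1 was at 0 to 2. Rag2c/c p53-/- lymphoma 2, with H19, Igf2 and Igf2bp3 all at 3, a single read, was the shallowest library.

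Of 8 genes listed under imprint maintenance, 6 were tested and 1 was called, Ctcfl, in both genotypes (16.7%, beside 29.5% and 23.6% of all genes). Whether Ctcfl acts on imprints in these cells was not tested. Ctcfl, a relative of CTCF known from testis, was at 1, 0 and 1 in WT thymus and rose to 234, 18, 113, 4 and 86 in the Atm-/- lymphomas (limma adjusted p = 0.0028) and to 95, 74, 486, 268 and 55 in the Rag2c/c p53-/- lymphomas (limma adjusted p = 0.00060). Every lymphoma was above every WT thymus, and no fold is given against WT values of 1 normalized count or less. CTCF itself (Ctcf) was at 8174 to 10139 in WT thymus and 4981 to 8375 in the lymphomas. Trim28 and Uhrf1, which help to maintain DNA methylation, were above WT in all 10 lymphomas by less than the fold threshold (0.71 and 0.51 for Trim28, 0.74 and 0.76 for Uhrf1, in Atm-/- and Rag2c/c p53-/- lymphomas).

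For each member that passed the filter, the genes most like it were ranked by the correlation of log2(value + 1) over the 10 lymphomas, a description across tumors of 2 genotypes that differ in depth and in the 1 tumor that was high for 4 members. H19 was most like Rab21, a vesicle GTPase gene (r = 0.906, rho = 0.942, and r = 0.879 without Rag2c/c p53-/- lymphoma 4), then Tfg (0.887) and Alg14 (0.88), although Rab21 moved only between 969 and 1389. Meg3 was most like Map2 (r = 0.97, rho = 0.96, at 0 to 22), then Siah2 (0.927) and Rab21 (0.902). Dlk1 was most like Mcf2l (r = 0.942, rho = 0.921, at 27 to 237), followed by Iglv2 (0.906, at 0 to 4) and Gucy1b3 (0.865).

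Igf2 was most like Alcam, which encodes an adhesion molecule (r = 0.91, rho = 0.884, and r = 0.803 without lymphoma 4), then Elovl7 (0.909) and Gucy1b3 (0.897). Igf2r was most like Agps, a gene of ether lipid synthesis (r = 0.981, rho = 0.939), then Hif1an (0.961) and Cnnm2 (0.956). Cdkn1c was most like Ola1 (r = 0.916, rho = 0.891), Ak4 (0.915) and RP23-349N4.5 (0.896), and Plagl1 most like Aoah (r = 0.947, rho = 0.963, and 0.974 without lymphoma 4), B230216N24Rik (0.902, at 0 to 4) and Gm9144 (0.876). None of the 8 members was among the 3 genes most like another member.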

How the data were processed

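Gene expression was measured by sequencing polyadenylated RNA of 13 libraries, made from single-cell suspensions with the TruSeq Stranded mRNA kit. Per the study's methods, which describe the WT thymuses and are taken here to hold for the other libraries, the authors aligned reads with STAR 2.4.0g1 to GRCm38 with Ensembl release 78, removed duplicates with Picard, kept uniquely mapped reads, counted them per gene and normalized them with DESeq2 1.6.3. The strand setting of the counting is not given in the sources used here. The deposited values are scores: normalized counts on the scale of the authors' size factors, rounded to whole numbers, as read from the values. Whole reads could not be recovered where 1 read is worth under 1 normalized count, so no count model was run. The table also holds the authors' fold changes and p-values, which were not used.

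Groups follow the genotype labels. Libraries were compared by limma 3.58.1 (R 4.3.3) on log2(value + 1) (trend and robust options), all 3 groups in a single fit, for genes at 10 or more in at least 3 libraries. Adjusted p-values are Benjamini-Hochberg values over all genes tested. The fit was tested on simulated data first, in which only well expressed genes were changed. That test does not cover genes of low level or single high tumors. Differences of the members are differences of group means with their SE and no test. The members and all lists were chosen with earlier results of these data known, and nothing in them is independent support.

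Genes were named by rule: the members, the imprinted genes of their domains, up to 4 called genes a direction, list and comparison, the 3 genes most correlated with each member, genes overlapping a member, and markers. Other genes named (Igf1, Ins1, Igf2bp1, Igf2bp3, Igfbp3, Grb10, Gnas, Sgce, Ctcf, Trim28 and Uhrf1) were chosen after their values were seen. The reference tables matched 48 of 51 other imprinted symbols.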

Additional observations from a re-analysis of the deposited data

Results flagged for a closer look

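A library was marked where its distance from the nearest other library of its group made up an unusually large share of the group's range. This marked 14 of 39 groups of 5 lymphomas. The cutoff marks about 5% of groups of normally distributed values, and whether these unlogged counts come near that was not tested. The members were also chosen with these values known, so the number marked is a description and says nothing against chance. In Rag2c/c p53-/- lymphoma 4 these were H19 at 2593 normalized counts (3 to 47 in the other 4 tumors), Igf2 at 372 (3 to 67), Meg3 at 168 (2 to 19), Dlk1 at 1639 (0 to 53), Rian at 125 (0 to 2), Mirg at 35 (0 to 1) and Kcnq1 at 21 (0 to 2). In Atm-/- lymphoma 4 they were Plagl1 at 228 (0 to 1), Meg3 at 66 (7 to 16), Rian at 36 (2 to 8) and Kcnq1 at 17 (0 to 3). The others were Dlk1 at 437 in Atm-/- lymphoma 3 (0 to 59), Kcnq1ot1 at 9354 in Atm-/- lymphoma 2 (2320 to 3303) and Peg3 at 86 in Rag2c/c p53-/- lymphoma 5 (0 to 9). Atm-/- lymphoma 2 was the shallowest library of its genotype.

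The genotypes differed, by limma with adjusted p over all genes, in their change from WT thymus for 5 genes of the lists. As log2 differences, Atm-/- minus Rag2c/c p53-/-, these were 1.52 for Kcnq1ot1, -3.66 for Peg10, -1.18 for Igf1r, -5.27 for Irs1 and 4.45 for Igfbp4. Of these, the Kcnq1ot1 and Peg10 calls were lost on leaving out single libraries (adjusted p up to 0.0644 and 0.0905), and the Igf1r, Irs1 and Igfbp4 calls were not.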

How the results depend on the processing

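No paired analysis was possible because the lymphoma labels carry no replicate numbers that the WT thymuses share. Recomputed differences of the members moved by less than 1 SD in 279 cases. The 1 exception was Meg3 in Atm-/- lymphomas against WT thymus, 1.79 with a pseudocount of 5 in place of 1, which by construction shrinks changes of low values. Moves under 1 SD were counted without regard to sign. Most cases left out 1 library, which by construction cannot move a difference between groups of 3 or 5 by 1 SD. Those cases therefore say nothing about stability. H19 in Rag2c/c p53-/- lymphomas against WT thymus moved from -3.78 to -5.22 without lymphoma 4 and still counted as under 1 SD. Between the lymphoma genotypes, some differences changed sign on leaving out a library. Their ranges were -1.09 to 0.54 log2 units for Igf2, -0.58 to 2.12 for Dlk1, -0.15 to 0.16 for Igf2r and -0.70 to 0.04 for Cdkn1c. Leaving out each library in turn, the other imprinted genes called numbered 5 to 9 in Atm-/- lymphomas against WT (5 without WT thymus 3), 3 to 5 in Rag2c/c p53-/- lymphomas against WT, and 0 to 4 between the genotypes (0 without Rag2c/c p53-/- lymphoma 5, 4 without Atm-/- lymphoma 2, 1 without any WT thymus, Atm-/- lymphomas 1, 3, 4 or 5 or Rag2c/c p53-/- lymphoma 1). Insulin-like growth factor genes called numbered 3 to 7 (3 without WT thymus 3), 4 to 7 and 3, and imprint maintenance genes 1, 1 and 0. With a threshold of 1.5-fold in place of a log2 fold change of 1, 7 other imprinted genes were called in Rag2c/c p53-/- lymphomas, and 3 and 2 imprint maintenance genes in Atm-/- and Rag2c/c p53-/- lymphomas, since fewer changes are turned away. Between the genotypes, 1 other imprinted gene was called with a pseudocount of 5, and 0 in a fit of those groups only, where Peg10 was not tested; the cause of the lost Kcnq1ot1 call was not tested. In Atm-/- lymphomas against WT thymus the Peg10 call was lost with a pseudocount of 5. Without a filter on low values the Kcnq1ot1 and Irs2 calls in Atm-/- lymphomas were lost. Other counts of calls stayed within 1.5 times under a pseudocount of 0.5, a stricter filter and recomputed size factors. Members at a few normalized counts (Meg3, Dlk1 and Peg3 in WT thymus) are limited by depth, and their differences from WT say little about size.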

Other observations

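Some imprinted genes outside the domains of the 8 genes also had single tumors far above the rest. Ppp1r9a, which encodes a neuronal actin-binding protein and lies near Peg10, was at 97 normalized counts in Rag2c/c p53-/- lymphoma 3 and at 0 to 14 in the other 12 libraries. Grb10 was at 204 in Atm-/- lymphoma 5 and at 68, 11, 23 and 34 in the other Atm-/- tumors. Mkrn3, a ubiquitin ligase gene of the Snrpn domain, was at 31, 0, 5, 16 and 18 in the Rag2c/c p53-/- lymphomas, 0 to 2 in the Atm-/- lymphomas and 4 to 6 in WT thymus, and Peg12 of the same domain was at 27, 0, 1, 9 and 3, at 0 to 2 and at 4 to 10. Magel2, also there, was at 0 in all 13 libraries. Ube3a, the ubiquitin ligase gene of that domain, was at 1904 to 2877 in WT thymus and at 1307 to 1973 in the lymphomas. These genes were chosen after their values were seen, and none was called.

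Zfp445, which encodes a zinc finger protein that guards imprints, was at 1772, 1290 and 1927 normalized counts in WT thymus, at 956, 50, 578, 566 and 877 in the Atm-/- lymphomas and at 1591, 135, 1104, 354 and 820 in the Rag2c/c p53-/- lymphomas. It was not called, and the lowest tumor of each genotype was lymphoma 2, the shallowest library of each (9.24 and 6.37 M counted reads). The lowest WT value was likewise in the shallowest WT library, WT thymus 2 (6.68 M). The part of depth in these levels was not tested. Zfp57, its better known partner, was at 0 to 11 in all 13 libraries.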
